A study of Mus musculus with 14 samples.

Results

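Female APP/PS1 mice that had received CP2 until 23 months of age were compared with non-transgenic (NTG) mice of the same age, to see how far the brain transcriptome of the treated mice still stood from that of mice without the transgenes. The comparison used 9 of the 14 mice of the study: 5 CP2-treated APP/PS1 mice (numbered 21 to 25) and 4 vehicle-treated NTG mice (numbered 7 to 10), over all genes. The 5 vehicle-treated APP/PS1 mice did not enter the test, and their levels are given beside it. APP/PS1 mice carry mutant human APP and PS1 transgenes and are labelled APP/PS1 +/+, and the controls are labelled wild type and non-transgenic. The strain label was C57BL/6;SJL-Tg in every group. CP2, a tricyclic pyrone and partial inhibitor of complex I of mitochondria, was added to the drinking water at 25 mg/kg/day in 0.1% polyethylene glycol (PEG) from 9 months of age, for 14 months. The other groups had water with 0.1% PEG according to the treatment protocol, although their treatment label reads non-treated. The promoter that drives each transgene is not given in the sources used here. Genotype and CP2 differ together between the groups, and no NTG mice on CP2 were analysed here, so the contributions of the transgenes and of the compound cannot be told apart in this comparison alone.

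RNA came from a slice of brain that held hippocampus and cortex. In brains with amyloid plaques, microglia gather around the deposits and switch on a set of genes that depends partly on the receptor TREM2 and its adaptor TYROBP, with lipid handling, lysosomal and phagocytic genes among them. Astrocytes become reactive and raise intermediate filaments and acute-phase proteins, while interferon-stimulated genes and antigen presentation genes are raised in microglia and other cells. Complex I, the target of CP2, is the entry point of electrons from NADH into the respiratory chain and is built from subunits encoded in the nucleus and in the mitochondrial genome.

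The libraries held 70548781 to 94741585 counts in NTG mice and 79846608 to 105732544 in CP2-treated mice, so that 1 count was worth 0.00938 to 0.0148 CPM, the count relative to the scaled library size. Levels below are in CPM, and fold changes are log2 values from edgeR with the Benjamini-Hochberg adjusted p over all genes tested. Nothing in the labels says how the mice were grouped into litters or cages, and p-values measure the spread between these mice. Genes of cortical layers, hippocampal CA fields, dentate gyrus and neurons in general were detected in all mice. A ribosomal RNA-like class of genes took 4.49% to 7.50% of counts, with NTG mouse 8 and CP2-treated mouse 23 at the top. The table listed 0 counts for all 37 genes of the mitochondrial chromosome, so the subunits that the mitochondrial genome encodes could not be examined. Mouse App, which the transgene of human sequence need not touch, lay at 1325, 1415, 1382 and 1472 CPM in NTG mice 7 to 10 and 1445, 1417, 1512, 1505 and 1501 CPM in CP2-treated mice 21 to 25 (log2 fold change 0.08, SE 0.05, adjusted p = 0.396). How many reads of the human transgenes map to the mouse genes was not tested.

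Of 16416 genes tested, 989 differed between the 5 treated and the 4 NTG mice at an adjusted p under 0.05, which is 6.02% of those tested. Of these, 749 (4.56% of genes tested) were higher in the treated mice and 240 (1.46%) were lower. The differences were unequal in size as well as in number: the median log2 fold change was 0.67 among higher genes (quartiles 0.39 and 1.02) and -0.31 among lower genes (quartiles -0.46 and -0.22), with 197 genes above 1 and 10 below -1. The median over all genes tested was -0.0015. For 1600 genes (9.75% of those tested) every treated mouse lay on one side of every NTG mouse, 1058 higher (6.44%) and 542 lower (3.3%), and 907 of the 989 were among them. The number of calls depended on single mice, since 572 genes passed without NTG mouse 9, 616 without CP2-treated mouse 21, 623 without NTG mouse 8 and 1123 without CP2-treated mouse 23. DESeq2 called 1670 genes, of which 64.4% were higher, against 75.7% here.

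**Figure D1:**
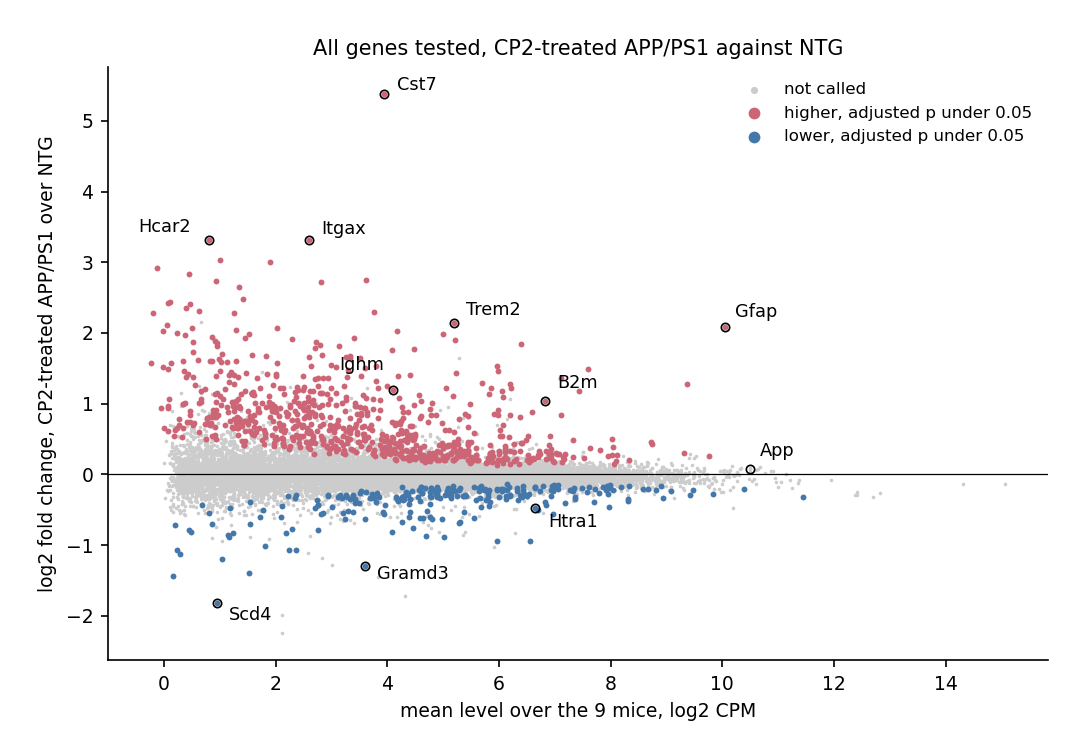
Log2 fold change of CP2-treated APP/PS1 (5 mice) over NTG (4 mice) against the mean level in log2 CPM for all 16416 genes tested, with the 749 higher and 240 lower genes in colour. Cst7 stands alone at the top with a log2 fold change of 5.37, most large differences are upward, and App lies close to 0.

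Cst7, which encodes cystatin F, an inhibitor of cysteine cathepsins and a marker of plaque-associated microglia, had the largest fold change of all genes tested and the smallest p. It stood at 0.891, 0.326, 0.548 and 0.793 CPM in NTG mice and at 31.2, 30.5, 30.6, 23.6 and 19.9 CPM in CP2-treated mice, with the lowest treated mouse far above the highest NTG mouse. The log2 fold change was 5.37 (SE 0.25, adjusted p = 3.91e-06), and vehicle-treated APP/PS1 mice were at 18.7, 33.99, 25.3, 39.2 and 44.6 CPM. Cst7 (ENSMUSG00000068129) lies at chr2:150570415-150578944 in mm10. Hcar2, a receptor for ketone bodies and niacin, and Itgax, which encodes the integrin CD11c, came next among the genes with a mean of at least 1 CPM and no overlap. Itgax rose from 1.48, 0.652, 0.798 and 1.08 CPM in NTG mice to 10.4, 10.3, 14.2, 7.55 and 7.76 CPM in treated mice (log2 fold change 3.31, SE 0.26), and Hcar2 rose from 0.289 ± 0.110 (SD, n = 4) to 2.90 ± 0.820 (SD, n = 5) CPM (log2 fold change 3.32, SE 0.30).

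The plaque-associated microglia list had 20 members tested, of which 15 were higher and 0 lower, with a median log2 fold change of 0.91 against -0.0015 over all genes. Trem2, the lipid-sensing receptor of microglia, read 15.6, 9.83, 14.03 and 10.7 CPM in NTG mice and 71.4, 67.8, 52.4, 39.6 and 46.1 CPM in treated mice. Tyrobp, its signalling adaptor, read 17.1, 14.99, 13.5 and 13.1 and 67.5, 73.2, 56.97, 39.2 and 38.5 CPM. Every treated mouse was above every NTG mouse for both, and the log2 fold changes were 2.14 (SE 0.20, adjusted p = 0.000319) and 1.91 (SE 0.20, adjusted p = 0.000423). Clec7a, the beta-glucan receptor dectin-1, rose by 2.72 (SE 0.30), although NTG mouse 7 stood apart from the other controls at 3.20 CPM. Apoe, the main lipid carrier of the brain and a member of the same list, is made by many cells besides microglia. It read 1835, 1569, 1658 and 1576 CPM in NTG mice and 2287, 2598, 2051, 1701 and 1649.8 CPM in treated mice, so that the groups overlapped (log2 fold change 0.31, adjusted p = 0.194). Since the tissue was sequenced in bulk, a larger number of microglia and more RNA of these genes per microglial cell cannot be told apart.

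Genes that mark microglia in the healthy brain were also higher. Of 15 homeostatic microglia genes, 10 rose and 0 fell (median log2 fold change 0.71), and the summed level of the list was 477 to 499 CPM in NTG mice and 703 to 1004 CPM in treated mice. Siglech, a sialic acid receptor of microglia, rose by 1.08 (SE 0.10), Gpr34 by 1.13 (SE 0.14) and Olfml3 by 0.73 (SE 0.10). In the list of phagocytic and scavenger receptors 5 of 12 members were higher, with a median of 0.31. Its members Mpeg1, a pore-forming protein of phagosomes, and Cd68, a lysosomal glycoprotein of phagocytes, rose by 1.84 (SE 0.17) and 2.03 (SE 0.18).

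All 11 tested genes of the Fc gamma receptors and their signal chain were higher, with a median of 1.01. Under the alternatives 8 to 11 passed, with 8 without NTG mouse 8, 9 or 10 or CP2-treated mouse 21 or 22. With the ribosomal RNA share as covariate 8 passed too. Cells take up antibody-coated material through Fc gamma receptors. Fcer1g, the common chain of these receptors, read 5.12, 4.10, 4.66 and 4.26 CPM in NTG mice and 21.1, 15.7, 14.6, 12.1 and 9.26 CPM in treated mice, and the inhibitory phosphatase gene Ptpn6 read 4.52, 3.58, 4.03 and 3.21 and 11.6, 11.04, 10.8, 8.96 and 7.05 CPM. The values of treated and NTG mice did not overlap for 10 of the 11 genes, beside 9.75% of all genes. Ighm, the constant region of the IgM heavy chain, was among the 8 higher genes with the smallest p and read 9.87, 11.3, 9.28 and 9.70 CPM in NTG mice against 26.2, 24.3, 19.1, 22.3 and 22.5 CPM in treated mice (log2 fold change 1.19, SE 0.10). Of the genes listed for perivascular macrophages, monocytes and lymphocytes, 5 of 18 passed the filter on low values. Cd52 was the one that rose (1.58, SE 0.23).

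Complement, the cascade that tags material and synapses for uptake, had 10 of 15 members higher and 0 lower (median 1.14). The chains of C1q, which start the classical pathway, rose close together: C1qa by 1.28, C1qb by 1.18 and C1qc by 1.14. C1qb was 46.9, 39.2, 36.5 and 34.5 CPM in NTG mice and 82.4, 92.6, 100.2, 86.3 and 82.7 CPM in treated mice, a narrow range within each group (SE 0.09, adjusted p = 0.000198). C4b, made largely by astrocytes and oligodendrocytes, rose by 1.50 (SE 0.23), with the caveat that reads of its near copy C4a may be shared with it. The median of the complement list was 0.86 without CP2-treated mouse 22. Of 11 Toll-like receptor genes and adaptors, 7 rose and 0 fell (median 0.88), among them Tlr2, a receptor for bacterial lipoproteins (1.79, SE 0.20), Tlr7, an RNA sensor (1.36, SE 0.16), and Unc93b1, which carries such sensors to endosomes (0.88, SE 0.14).

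The lysosome list held 34 tested genes, of which 21 rose and 0 fell, with a median of 0.32. The members that rose most were those with high expression in macrophages, namely Lyz2 (1.44), Ctss (1.36) and Laptm5 (1.30). Ctsz, a carboxypeptidase of the lysosome, read 36.5, 32.6, 34.8 and 30.1 CPM in NTG mice and 91.4, 96.3, 74.6, 66.9 and 60.7 CPM in treated mice (SE 0.13). Among autophagy genes 0 of 26 passed the test in edgeR and 5 had an unadjusted p under 0.05, beside 989 and 3312 of all 16416 genes, and the list spanned -0.20 to 0.21. The calls in the autophagy list under the alternatives ranged from 0 to 2 higher and from 0 to 1 lower, with 2 higher and 1 lower without NTG mouse 7.

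Signals of inflammation and growth factors were raised in part. Of 11 chemokine and receptor genes, 5 rose (median 0.48). Ccl3, a chemokine for monocytes made by microglia, read 0.541, 0.118, 0.648 and 0.275 CPM in NTG mice and 4.17, 4.80, 3.44, 2.05 and 1.98 CPM in treated mice, with treated mice 24 and 25 the lowest of their group (log2 fold change 3.03, SE 0.42). Cxcl10, an interferon-induced chemokine, read 0.462, 0.429, 0.573 and 0.370 and 4.51, 3.77, 2.02, 2.45 and 2.56 CPM (2.74, SE 0.27). In the list of the IL-6 family, colony-stimulating factors and receptors, 9 of 17 genes rose and Cntfr fell by 0.21, a call lost without NTG mouse 9 or 10 or CP2-treated mouse 24 or 25. Csf1, the growth factor that maintains microglia, was 25.9, 25.6, 24.2 and 24.7 CPM in NTG mice and 40.01, 41.5, 36.5, 36.7 and 38.9 CPM in treated mice, a modest but tight difference (0.63, SE 0.05, adjusted p = 0.000198). Osmr, the oncostatin M receptor, rose by 2.30 (SE 0.22) and Stat3, the transcription factor downstream of it, by 0.63 (SE 0.07). In the list of p53, senescence and cell death genes 6 of 21 rose, and these included receptors and ligand of TGF-beta: Tgfbr2 rose by 1.11 (SE 0.12) and Tgfb1 by 0.99 (SE 0.16). Trp53 itself gave 0.19 (SE 0.05, adjusted p = 0.0642), and Birc3, an inhibitor of apoptosis, gave 0.26 (adjusted p = 0.291).

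Interferon-stimulated genes rose as a group, with 25 of 29 tested members higher and 0 lower and a median log2 fold change of 0.96. The groups did not overlap for 25 of the 29 genes, beside 9.75% of all genes. Under the alternatives 15 to 26 members passed, with 15 when all 3 groups shared one fit and 18 without NTG mouse 9 or NTG mouse 10. Irgm1, an interferon-inducible GTPase that acts on intracellular vacuoles, read 8.18, 8.72, 7.58 and 7.97 CPM in NTG mice and 14.1, 14.1, 13.3, 12.8 and 14.8 CPM in treated mice (log2 fold change 0.77, SE 0.07, adjusted p = 0.00027). Usp18, which removes ISG15 from proteins and dampens the interferon receptor, read 1.27, 1.16, 1.21 and 1.26 and 2.58, 2.66, 2.51, 2.49 and 2.98 CPM (1.11, SE 0.10). Bst2, a membrane tether that holds budding virus, rose by 1.19 (SE 0.12), and Ifit1, which binds foreign RNA, rose from 3.71 to 7.08 CPM (0.94, SE 0.20). Isg15, the ubiquitin-like modifier, rose from 1.59 to 2.57 CPM (0.69, SE 0.16). Irgm1 read 11.8, 20.6, 28.7, 18.9 and 17.2 CPM in the vehicle-treated APP/PS1 mice, a wider spread than in the treated mice. The medians of the list against NTG were 1.46 for vehicle-treated and 0.96 for CP2-treated APP/PS1 mice. Those comparisons share the NTG mice, and the direct test between CP2 and vehicle called 0 members of the list (median -0.46).

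Many interferon-stimulated genes are known to carry an interferon-stimulated response element near their start, to which transcription factors activated by type I interferon bind. The letters GAAA, any 2 bases and GAAA again, on either strand, were found in 14 of 19 (73.7%) called members of the list that had a promoter window in RefSeq (GRCm38.p6; 250 bases before to 50 after the gene start). The share was 3.55% over the 11122 tested genes with a window, 7.56% of 529 higher genes and 8% of 175 lower genes, so the letters were not rare among the lower genes either. Windows for 4 members are shown as examples, 5′ to 3′ on the strand of the gene, and the capitals mark every match. Each holds overlapping or repeated matches, as do Gbp3, Ifit3, Ifitm3 and Oas1a, which are not shown.
Irgm1, chr11:48871371-48871670, minus strand: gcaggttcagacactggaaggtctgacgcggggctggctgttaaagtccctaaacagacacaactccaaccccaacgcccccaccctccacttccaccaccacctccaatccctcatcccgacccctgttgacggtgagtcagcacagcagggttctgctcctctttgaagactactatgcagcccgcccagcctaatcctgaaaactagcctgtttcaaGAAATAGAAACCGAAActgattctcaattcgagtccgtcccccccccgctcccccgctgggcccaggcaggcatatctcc
Bst2, chr8:71537423-71537722, minus strand: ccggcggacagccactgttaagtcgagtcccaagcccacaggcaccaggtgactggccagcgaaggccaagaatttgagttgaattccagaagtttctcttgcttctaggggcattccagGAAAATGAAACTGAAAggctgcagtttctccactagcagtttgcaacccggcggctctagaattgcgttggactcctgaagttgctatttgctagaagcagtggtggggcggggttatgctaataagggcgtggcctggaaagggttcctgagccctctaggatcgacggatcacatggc
Ifit1, chr19:34640639-34640938, plus strand: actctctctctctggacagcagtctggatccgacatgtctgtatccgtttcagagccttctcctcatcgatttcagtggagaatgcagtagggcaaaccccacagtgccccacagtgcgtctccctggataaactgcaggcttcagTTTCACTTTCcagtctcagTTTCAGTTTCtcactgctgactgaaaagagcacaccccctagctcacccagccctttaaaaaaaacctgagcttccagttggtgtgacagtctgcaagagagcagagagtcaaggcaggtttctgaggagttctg
Isg15, chr4:156200769-156201068, minus strand: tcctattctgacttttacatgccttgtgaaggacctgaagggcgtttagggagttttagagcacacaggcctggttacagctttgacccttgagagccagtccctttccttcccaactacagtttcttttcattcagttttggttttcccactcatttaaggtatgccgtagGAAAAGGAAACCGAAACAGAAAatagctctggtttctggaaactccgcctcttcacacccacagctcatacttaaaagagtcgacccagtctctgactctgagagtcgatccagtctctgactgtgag
Relative to the gene start, the first match began at base -30 in Irgm1, -78 in Isg15, -104 in Ifit1 and -130 in Bst2. Isg15 held 3 matches and the others 2 each. A match is a description of the letters and was not tested as a site of binding here. A site of PU.1, the master transcription factor of microglia, written GAGGAAGT on either strand, was in 8.88% of the higher genes with a window, 2.29% of the lower genes and 3.36% of the tested genes. It was in 0 of 19 higher genes with a window from the interferon list and in 0 of 19 from the lists of plaque-associated and homeostatic microglia.

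Antigen presentation genes followed. In MHC class I presentation 10 of 16 genes rose (median 0.70) and in MHC class II presentation 4 of 10 (median 0.61). Class I calls numbered 4 without NTG mouse 10 and 5 without NTG mouse 9 or CP2-treated mouse 21. B2m, the invariant light chain of class I molecules, was 82.9, 75.6, 65.3 and 62.1 CPM in NTG mice and 147, 161, 142, 137 and 148 CPM in treated mice (1.04, SE 0.08, adjusted p = 0.000198). Tap1, the peptide transporter, rose by 0.84 (SE 0.12) and Nlrc5, the transactivator of class I genes, by 1.07 (SE 0.21). Cd74, the invariant chain of class II molecules, was 7.90, 10.1, 5.33 and 7.22 CPM in NTG mice and 18.4, 16.3, 25.4, 16.5 and 18.3 CPM in treated mice, where mouse 23 stood above the rest of its group. The proteasome subunit Psmb8, which replaces a standard subunit under interferon, rose by 1.19 (SE 0.12), and 2 of 5 immunoproteasome genes rose in all. The exons of Tap1 and Psmb9 overlap, and reads of the H2-Q genes may be shared between close copies.

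**Figure D2:**
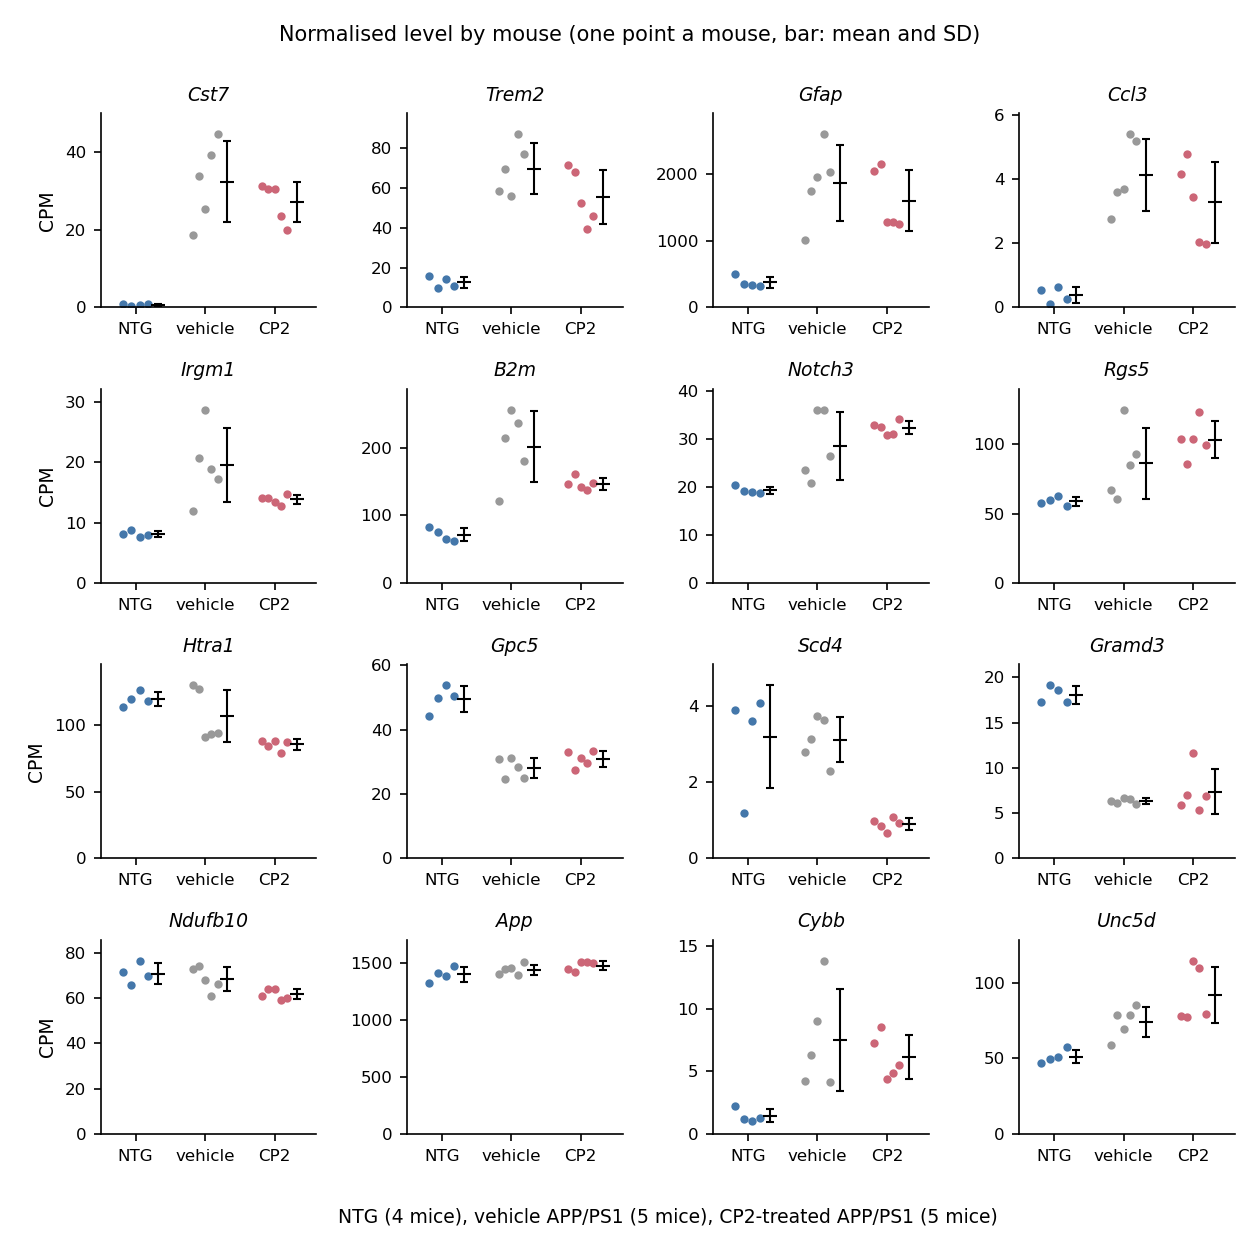
Level in CPM by mouse for 16 genes in NTG (4 mice, blue), vehicle-treated APP/PS1 (5 mice, grey) and CP2-treated APP/PS1 (5 mice, red), with the mean and SD as a black bar. Treated mice lie apart from NTG mice for Cst7, Trem2, Gfap, Irgm1, B2m, Notch3, Gpc5 and Gramd3, and Scd4 is low only in the CP2-treated group apart from NTG mouse 8 at 1.18 CPM.

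Astrocyte genes moved in opposite directions. Of 15 genes of reactive astrocytes, 11 rose and 0 fell, with a median of 1.46, the highest of the lists. Gfap, the intermediate filament of reactive astrocytes, read 504, 346, 336 and 324 CPM in NTG mice and 2051, 2144, 1285, 1277 and 1244 CPM in treated mice, where mice 21 and 22 were well above the other treated mice (2.08, SE 0.21, adjusted p = 0.000365). Vim, which encodes vimentin, read 38.97, 36.8, 25.9 and 26.3 and 122, 129, 54.5, 62.9 and 72.5 CPM, with the same 2 mice on top. Serpina3n, an acute-phase protease inhibitor, rose by 1.54 (SE 0.25), and Aspg, an asparaginase, by 1.48 (SE 0.20).

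Of 18 genes that mark astrocytes at rest, 5 fell and 1 rose, and the list had a median of -0.18. Its summed level was 9072 to 9578 CPM in NTG mice and 7907 to 8361 CPM in treated mice, without overlap. Gpc5, a heparan sulfate proteoglycan, fell from 44.3, 49.95, 53.9 and 50.5 CPM to 33.2, 27.6, 31.2, 29.6 and 33.5 CPM (-0.68, SE 0.07). Fgfr3, a growth factor receptor, fell from 163, 163, 175 and 168 to 123, 124, 135, 115 and 135 CPM (-0.40, SE 0.05). Ndrg2, Slc1a2 (the main glutamate transporter) and Gjb6 (connexin 30) fell as well, with log2 fold changes of -0.29, -0.31 and -0.32. Aqp4, the water channel of astrocyte endfeet, was the member that rose, by 0.50, a call lost without NTG mouse 8, 9 or 10 or CP2-treated mouse 21 or 22. Lower members numbered 3 without NTG mouse 8 and 8 by DESeq2.

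The 8 lower genes with the smallest p were Htra1, Mfge8, Apln, Gpc5, Cbs, Btbd17, Pygm and Fam107a, and several of them are expressed mainly by astrocytes. Mfge8, a bridging protein for the uptake of dying cells, was 134, 165, 157 and 156 CPM in NTG mice and 102, 104, 108, 101 and 103 CPM in treated mice (-0.56, SE 0.06, adjusted p = 0.000365). Htra1, a secreted serine protease, was 113, 119, 126 and 118 and 88.4, 84.5, 88.3, 79.2 and 87.7 CPM (-0.48, SE 0.05), and vehicle-treated APP/PS1 mice spread over 129.95, 127, 91.2, 93.1 and 93.8 CPM. Fam107a, an actin-binding protein induced by stress, was also lower in every treated mouse than in every NTG mouse. It read 281, 307, 301 and 296 CPM in NTG mice and 223, 224, 227, 196 and 205 CPM in treated mice. Vehicle-treated APP/PS1 mice spread wider, over 375, 333, 194, 264 and 283 CPM. The direct test between CP2 and vehicle called neither gene. Cbs, the first enzyme that turns homocysteine into cysteine, fell by 0.62 on the log2 scale (SE 0.07), Pygm, which releases glucose from glycogen, by 0.53 (SE 0.06), and Apln, the peptide ligand of the apelin receptor, by 0.76 (SE 0.08).

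**Figure D3:**
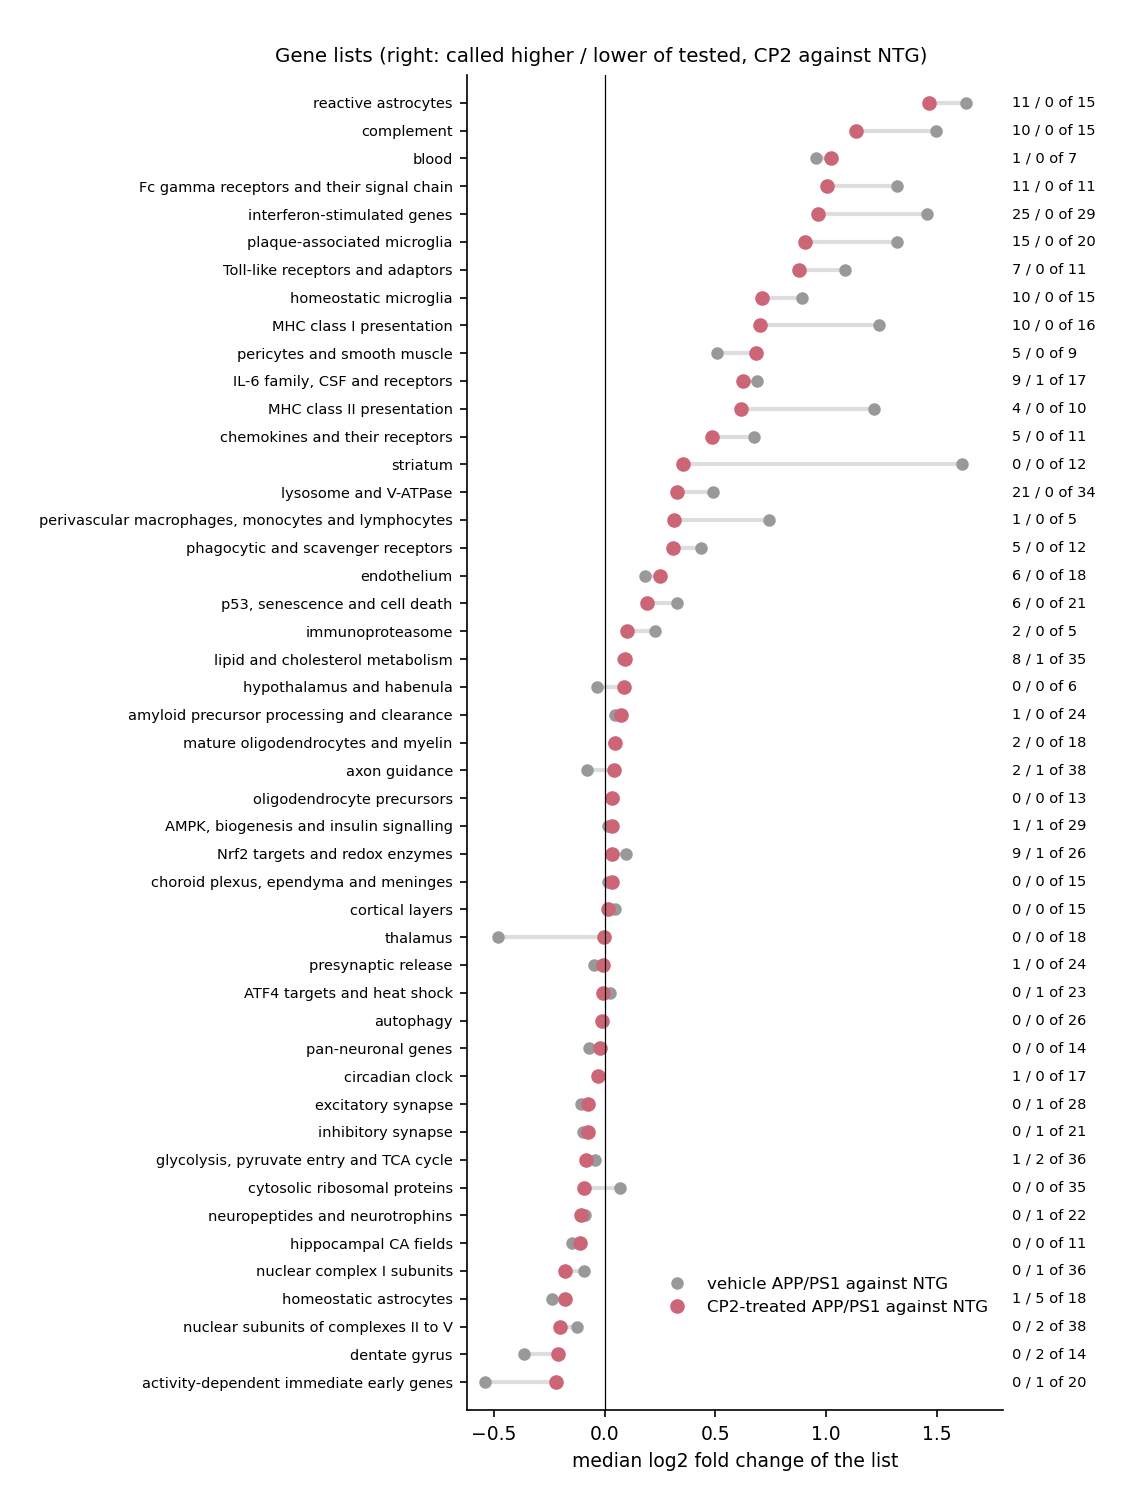
Median log2 fold change of each gene list with at least 5 tested members for CP2-treated APP/PS1 against NTG (red) and vehicle-treated APP/PS1 against NTG (grey), with the number called higher and lower of those tested on the right. Microglial, immune and reactive astrocyte lists lie above 0 in both, up to 1.46 for reactive astrocytes in the treated mice, and the 2 comparisons share the NTG mice.

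Part of the vascular genes rose. Notch3, the Notch receptor of pericytes and smooth muscle, had the smallest p after Cst7 and read 20.5, 19.1, 19.02 and 18.8 CPM in NTG mice and 33.00, 32.6, 30.9, 31.1 and 34.1 CPM in treated mice (0.74, SE 0.05, adjusted p = 8.96e-05). Vehicle-treated APP/PS1 mice ranged over 23.5, 20.8, 35.98, 36.1 and 26.4 CPM, on both sides of the gap. The exons of Notch3 overlap those of another annotated gene in the count table. Of 9 genes of pericytes and smooth muscle 5 rose (median 0.68), led by Rgs5, a regulator of G protein signalling in pericytes (57.6, 59.9, 62.7 and 55.5 against 104, 85.5, 104, 123 and 99.8 CPM, 0.81, SE 0.09). Abcc9, the sulfonylurea receptor of a pericyte potassium channel, rose by 0.77 (SE 0.17), a call lost under 4 of 19 alternatives. The calls of Tagln and Myh11, both of smooth muscle, were each lost under 8 of 19 alternatives, and the list gave 1 to 7 calls under the alternatives, with 1 without NTG mouse 10 or CP2-treated mouse 24 and 2 without NTG mouse 8, CP2-treated mouse 21 or CP2-treated mouse 25, and 3 without NTG mouse 7 or CP2-treated mouse 22. Of 18 endothelial genes 6 rose (median 0.25). The calls made up 33.3% of this list and 55.6% of the pericyte and smooth muscle list, beside 6.02% of all genes. In the endothelial list 1 rose without NTG mouse 10 and 3 without CP2-treated mouse 22. Without NTG mouse 8, CP2-treated mouse 21 or CP2-treated mouse 24, 2 rose. Flt1, a receptor for VEGF, read 54.1, 55.3, 60.4 and 55.6 CPM in NTG mice. It read 71.8, 67.9, 64.04, 74.5 and 75.01 CPM in treated mice (0.33, SE 0.06). Hemoglobin Hba-a2, a marker of blood in the tissue, rose by 1.98 (SE 0.48) from 15.8, 10.03, 14.4 and 7.87 to 21.9, 28.2, 19.97, 83.9 and 83.6 CPM, with mice 24 and 25 far above the others, and this call was lost under 8 of 19 alternatives. The mean log2 level of the blood list was 1.46 and 1.31 above the NTG mean in those 2 mice and 0.30 to 0.50 in the other 3. The part of blood in the vascular genes was not tested.

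Lipid genes held the single gene that also passed the direct test of CP2 against vehicle in APP/PS1 mice. Scd4, a stearoyl-CoA desaturase, read 3.89, 1.18, 3.61 and 4.07 CPM in NTG mice 7 to 10, 0.976, 0.847, 0.669, 1.10 and 0.936 CPM in CP2-treated mice and 2.79, 3.14, 3.74, 3.64 and 2.29 CPM in vehicle-treated APP/PS1 mice. All CP2-treated mice were below all other mice, though NTG mouse 8 came close at 1.18 CPM. The log2 fold change against NTG was -1.82 (SE 0.30, adjusted p = 0.00524), and that against vehicle-treated APP/PS1 mice was -1.77 (adjusted p = 0.00684). The gene lies in a cluster of close copies, and its level is near 1 CPM in the treated mice. Of 35 lipid and cholesterol genes 8 rose and Scd4 fell, while 4 rose without NTG mouse 9 and 5 without NTG mouse 10. The calls made up 25.7% of this list, beside 6.02% of all genes. Ch25h, which makes the oxysterol 25-hydroxycholesterol in macrophages, rose by 1.85 (SE 0.24). Sqle, an enzyme of cholesterol synthesis, rose by less and with little spread (65.03, 63.6, 60.8 and 66.1 against 81.2, 78.4, 79.9, 83.3 and 79.5 CPM, 0.33, SE 0.04).

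Gramd3 and 4 other genes had the largest falls among lower genes without overlap and a mean of at least 1 CPM. Gramd3, which encodes a lipid-binding protein of membrane contact sites, read 17.3, 19.1, 18.6 and 17.2 CPM in NTG mice and 5.85, 6.99, 11.6, 5.39 and 6.93 CPM in CP2-treated mice, and vehicle-treated APP/PS1 mice were at 6.33, 6.15, 6.67, 6.61 and 5.97 CPM. Mouse 23 was above the rest of the treated group, and the fold change was -1.30 (SE 0.19). Crnde, a long noncoding RNA (-1.43), Rmrp, the RNA of a processing ribonuclease (-1.39), and Rpe65, the retinoid isomerase (-1.12), completed the set with Scd4. All 3 had low counts, and the calls of Crnde, Rmrp and Rpe65 were lost under 3, 3 and 13 of 19 alternatives.

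The respiratory chain, on which CP2 acts, had small differences of 1 sign, most of which did not pass the test. Of 36 nuclear-encoded complex I subunits, 0 rose and 1 fell, but all 36 had a log2 fold change below 0 (median -0.18, from -0.34 to -0.04), and 23 had an unadjusted p under 0.05. Of 38 nuclear subunits of complexes II to V, 2 fell, all 38 were below 0 (median -0.20) and 31 had an unadjusted p under 0.05. Over all 16416 genes tested, 3312 had an unadjusted p under 0.05, 1902 higher and 1410 lower. The called shares were 2.78% for complex I and 5.26% for complexes II to V, beside 6.02% of all genes. Ndufb10, the complex I subunit that passed, read 71.4, 65.5, 76.4 and 69.5 CPM in NTG mice and 60.8, 64.1, 63.9, 59.2 and 60.1 CPM in treated mice (-0.20, SE 0.05, adjusted p = 0.0406). Cox8a of complex IV (-0.23, SE 0.06) and Cyc1 of complex III (-0.16, SE 0.04) were the others. These calls were weak, being lost under 11, 10 and 13 of 19 alternatives, while DESeq2 called 13 subunits of complex I and 18 of complexes II to V lower. The median against NTG in vehicle-treated APP/PS1 mice was -0.09 for complex I and -0.12 for complexes II to V, and the direct test between CP2 and vehicle called 0 subunits.

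Of 35 cytosolic ribosomal protein genes, 33 had a log2 fold change below 0 (median -0.09), with 0 called. The mean log2 level of the ribosomal protein list relative to the NTG mean was 0.13, 0.07, -0.02 and -0.19 in NTG mice 7 to 10 and -0.06, 0.01, 0.05, -0.21 and -0.30 in CP2-treated mice 21 to 25. The mean of the complex I list was 0.13, 0.03, -0.04 and -0.12 in the same NTG mice and -0.17, -0.09, -0.07, -0.25 and -0.32 in the treated mice. The mice with the lowest ribosomal protein level in each group, NTG mouse 10 and treated mouse 25, were also lowest for complex I, and the part of that shift in the result was not tested.

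**Figure D4:**
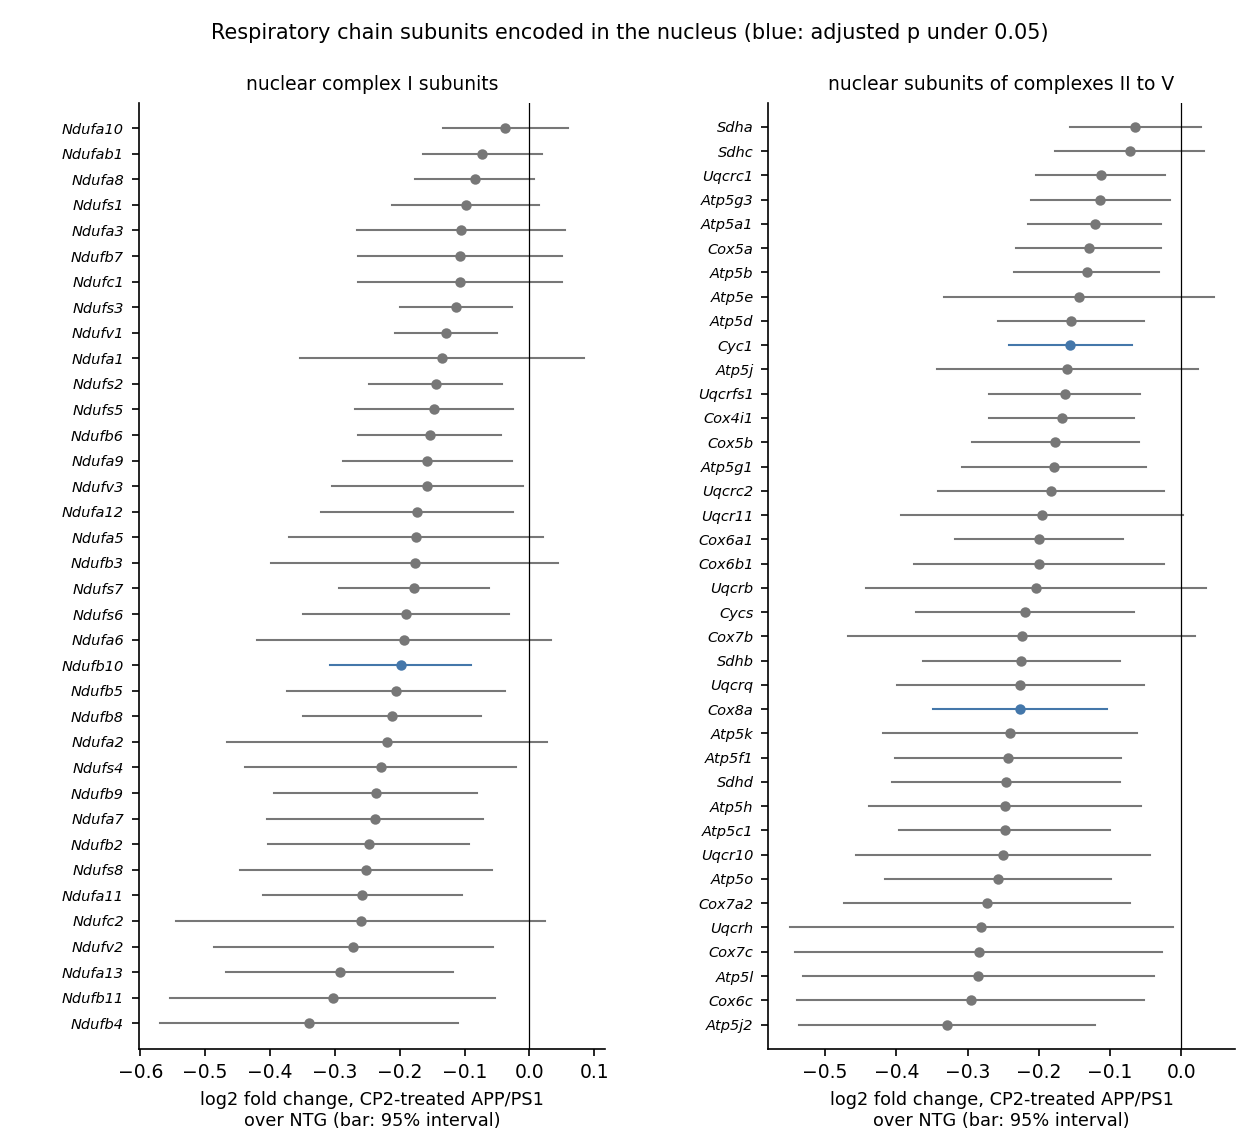
Log2 fold change of CP2-treated APP/PS1 over NTG with its 95% interval for 36 nuclear-encoded complex I subunits (left) and 38 subunits of complexes II to V (right), with genes at an adjusted p under 0.05 in blue. All points lie below 0, between -0.34 and -0.04, and only Ndufb10, Cox8a and Cyc1 passed the test.

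Glycolysis, pyruvate entry and TCA cycle genes had 1 of 36 higher and 2 lower. Hk2, the inducible hexokinase, rose by 0.72 (SE 0.16), whereas Ldhb, a lactate dehydrogenase chain, read 461, 441, 432 and 415 CPM in NTG mice and 384, 386, 394, 372 and 356 CPM in treated mice (-0.21, SE 0.05). In the list of AMPK, biogenesis and insulin signalling, 1 of 29 rose and 1 fell. Acaca, acetyl-CoA carboxylase, the classical substrate of AMPK, rose by 0.23 (SE 0.05), and Sirt3, the mitochondrial deacetylase, read 55.5, 59.4, 60.9 and 56.4 CPM in NTG mice and 51.2, 49.9, 52.3, 49.8 and 45.01 CPM in treated mice (-0.23, SE 0.05). These counts are 8.33% of the glycolysis and TCA cycle list and 6.9% of the AMPK list. They lie near the 6.02% of all genes and changed when single mice were left out. Under the alternatives the log2 fold change stayed between -0.25 and -0.18 for Ldhb and between -0.25 and -0.19 for Sirt3. The calls of Hk2, Ldhb, Sirt3 and Acaca were lost under 4, 5, 4 and 10 of 19 alternatives. Glycolysis, pyruvate entry and TCA cycle genes had 0 calls without NTG mouse 9 or CP2-treated mouse 21, 0 higher without NTG mouse 8 or 10, 0 lower without CP2-treated mouse 24, and 1 lower without NTG mouse 8 or CP2-treated mouse 22 or 25. The AMPK list had 0 calls without NTG mouse 8 or 9 or CP2-treated mouse 22 or 24, and 0 higher without CP2-treated mouse 21 or 25.

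Of 26 Nrf2 targets and redox enzymes 9 rose and 1 fell, but the members that rose furthest were the subunits of the phagocyte NADPH oxidase, which makes superoxide. Cybb, its catalytic chain, read 2.222, 1.21, 1.07 and 1.30 CPM in NTG mice and 7.28, 8.56, 4.40, 4.88 and 5.48 CPM in treated mice (2.07, SE 0.26), and Cyba, Ncf4 and Ncf1 rose by 1.14, 1.07 and 0.96. Hmox1, the heme oxygenase that Nrf2 induces, rose by 0.82 (SE 0.11). G6pdx, which supplies NADPH, gave 0.02 (adjusted p = 0.918), and Mt3, a brain metallothionein, gave -0.02 (adjusted p = 0.896). Of 23 ATF4 targets and heat shock genes, Phgdh, the first enzyme of serine synthesis, fell by 0.24 on the log2 scale (SE 0.06) and none rose, a share below the 6.02% of all genes. The call of Phgdh was lost under 6 of 19 alternatives, among them those without NTG mouse 7, 8 or 9 or CP2-treated mouse 21 or 24.

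The counts of calls in the neuronal and synaptic lists were small and are read beside the 6.02% of all genes called, which is about 1 gene in a list of this size. In edgeR 0 of 14 pan-neuronal genes passed (2 at an unadjusted p under 0.05), 0 of 15 cortical layer genes (1) and 0 of 11 CA field genes (4). Over all genes tested, 3312 of 16416 had an unadjusted p under 0.05. Of 28 excitatory synapse genes, Grm3, a metabotropic glutamate receptor that astrocytes also express, fell by 0.38 on the log2 scale (SE 0.05). Grm3 was the 1 of the 28 that passed, and 5 of them were lower without NTG mouse 7. Of 21 inhibitory synapse genes, 0 rose and 1 fell, with 0 lower without NTG mouse 9 and 2 without CP2-treated mouse 23. Gabra2, a GABA-A receptor subunit, spread widely among NTG mice (64.3, 65.8, 35.5 and 35.8 CPM) and treated mice (104, 96.5, 64.6, 69.6 and 97.7 CPM) and did not pass (0.78, adjusted p = 0.0651).

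The presynaptic scaffold gene Rims1, which organises vesicle release, rose from 186, 194, 210.1 and 193 CPM to 257, 259, 229.5, 257 and 237 CPM (0.34, SE 0.05, adjusted p = 0.00294), the only 1 of 24 presynaptic genes to pass. Without CP2-treated mouse 21, 2 of the 24 rose. Of 38 axon guidance genes 2 rose and 1 fell, also near the 6.02% of all genes, and 1 rose without NTG mouse 8, NTG mouse 9, CP2-treated mouse 21 or CP2-treated mouse 22. Unc5d, a receptor for netrins, read 46.6, 49.8, 50.8 and 57.5 CPM in NTG mice and 78.00, 77.5, 114, 109.8 and 78.96 CPM in treated mice (0.84, SE 0.13), and Sema4d, a semaphorin of oligodendrocytes, rose by 0.27 (SE 0.06), a call lost under 5 of 19 alternatives. Btbd3, which directs dendrites toward active axons, was 216, 226, 231 and 234 CPM in NTG mice and 196, 192, 202, 189 and 201 CPM in treated mice (-0.21, SE 0.04).

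Of 14 dentate gyrus genes 2 fell (median -0.21), with 1 to 3 lower under the alternatives. The calls made up 14.3% of the list, beside 6.02% of all genes. Tdo2, tryptophan dioxygenase, a marker of mature granule cells, read 3.83, 3.11, 2.64 and 2.38 CPM in NTG mice and 1.68, 1.66, 1.65, 1.58 and 1.50 CPM in treated mice (-0.89, SE 0.14, adjusted p = 0.00345), and C1ql2, a synaptic organiser of mossy fibres, gave -0.51 (adjusted p = 0.0428), a call lost under 10 of 19 alternatives. Bdnf, the activity-regulated neurotrophin, was 20.3, 30.4, 24.6 and 21.99 CPM in NTG mice and 17.5, 16.6, 20.5, 18.5 and 17.8 CPM in treated mice, with 1 treated mouse inside the NTG range (-0.42, SE 0.11, adjusted p = 0.0458, lost under 10 of 19 alternatives). It was also the 1 called gene among 22 neuropeptides and neurotrophins (median -0.10), and 0 of 6 genes of hypothalamus and habenula passed by edgeR (1 at an unadjusted p under 0.05, median 0.09). Bdnf was the 1 of 20 immediate early and activity-dependent genes that passed. Calls made up 4.55% of the neuropeptide and neurotrophin list and 5% of the immediate early list, beside 6.02% of all genes. The mean log2 level of the immediate early list relative to the NTG mean was 0.68 in treated mouse 25 and -0.69 to -0.33 in the other 4. The median fold change of the immediate early list was -0.22 with mouse 25 and -0.57 without it. The marker genes of thalamus had a median of -0.0031 and those of striatum 0.35 (0.17 without treated mouse 23). Of these, 0 of 18 and 0 of 12 were called, and 1 and 2 had an unadjusted p under 0.05, beside 3312 of all 16416 genes. In vehicle-treated APP/PS1 mice the medians of these lists against NTG were -0.48 and 1.62 in the same order.

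Genes of amyloid precursor processing and clearance had 1 of 24 higher and 0 lower, with 0 higher without NTG mouse 9, and the list median was 0.07. The share called was 4.17%, beside 6.02% of all genes. Of 18 genes of mature oligodendrocytes and myelin, Trf, transferrin, rose by 0.46 (SE 0.10) and Cldn11, a tight junction protein of myelin, by 0.30 (SE 0.07). These 2 calls are 11.1% of the list, beside 6.02% of all genes, and were lost under 6 and 5 of 19 alternatives. The list had 0 calls without NTG mouse 8, 9 or 10 or CP2-treated mouse 21, 1 without CP2-treated mouse 24 or 25, and 4 without NTG mouse 7. Among oligodendrocyte precursor genes, 0 of 13 passed in edgeR and 0 had an unadjusted p under 0.05, beside 3312 of all 16416 genes. Of 17 clock genes Bhlhe41, a repressor within the clock, rose by 0.23 (SE 0.05), a share near the 6.02% of all genes. In choroid plexus, ependyma and meninges 0 of 15 passed and 0 had an unadjusted p under 0.05, while the summed level of the list ranged from 186 to 1203 CPM among NTG mice and from 343 to 1047 CPM among treated mice.

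The CP2-treated mice differed among themselves in the glial lists, with mice 21 and 22 above the others for reactive astrocytes and for plaque-associated microglia. Mice 21 and 22 had the highest mean log2 level of reactive astrocyte genes relative to the NTG mean (1.59 and 1.50), and mice 23, 24 and 25 lay at 0.82, 0.98 and 0.93. For plaque-associated microglia the values were 1.37 and 1.40 in mice 21 and 22 and 1.31, 1.03 and 0.88 in mice 23, 24 and 25. The order of the other 3 mice differed between these lists. For interferon-stimulated genes mouse 25 was highest at 0.94 and mouse 23 lowest at 0.56. In every one of these lists all 5 treated mice were above all 4 NTG mice, the highest NTG values being 0.18 for reactive astrocytes, 0.22 for plaque-associated microglia and 0.18 for interferon-stimulated genes.

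**Figure D5:**
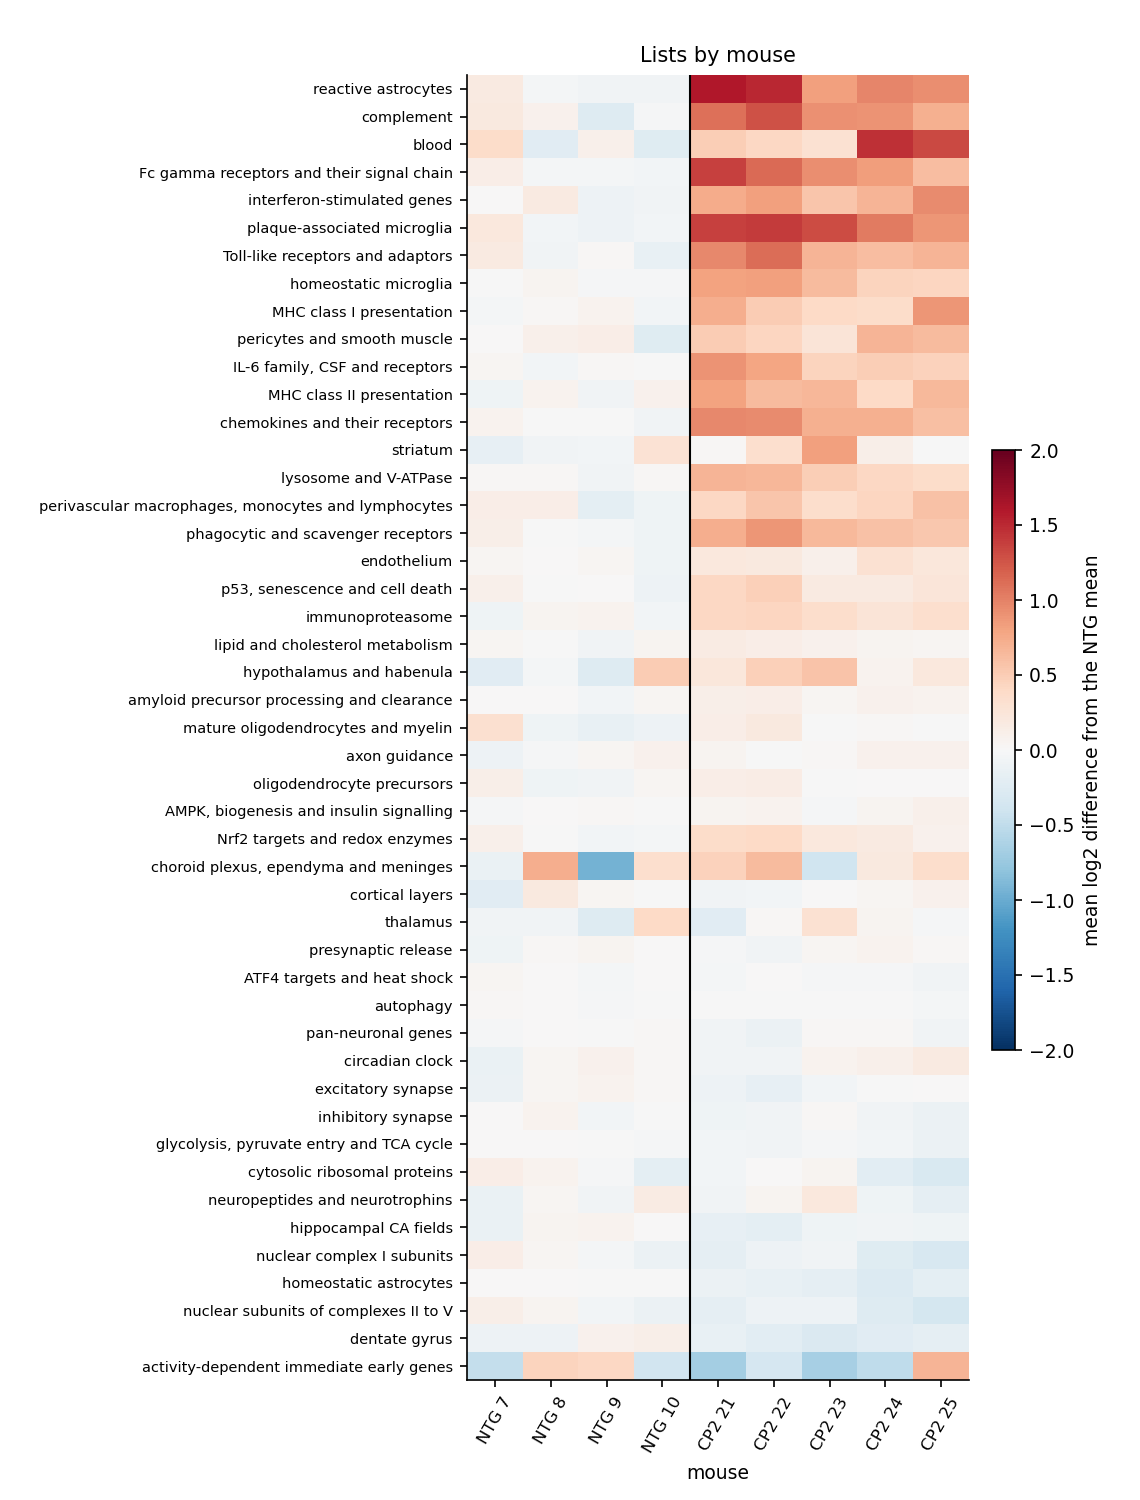
Mean log2 difference from the NTG mean for each gene list (rows) in NTG mice 7 to 10 and CP2-treated mice 21 to 25 (columns), with red above and blue below that mean. Microglial, immune and reactive astrocyte lists are red in all 5 treated mice, mice 24 and 25 stand out for blood genes (1.46 and 1.31), and mouse 25 differs from the other treated mice in immediate early genes (0.68).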

How the data were processed

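RNA sequencing of brain slices from 4 NTG and 5 CP2-treated APP/PS1 mice was analysed. According to the labels and the methods of the study, the authors made TruSeq v2 libraries from 200 ng of RNA, aligned reads with TopHat to mm10 and counted them with featureCounts (Subread), where a read overlapping several genes counted for each. The deposited table gives read counts per gene without normalization, and RPKM values by the authors, which were not used. Versions and the strand setting are not given in the sources used here. Of 43346 genes, 9984 had no count in the 9 mice. Replicates were not copies of each other (chi-square per degree of freedom 9.87 to 57.4).

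Genes with a CPM above 1 in every mouse of at least 1 group were kept. Quasi-likelihood tests in edgeR 4.0.16 (limma 3.58.1, R 4.3.3) were fitted to the counts of the 9 mice with TMM factors (0.960 to 1.02), and p-values were adjusted over all genes by the Benjamini-Hochberg method. Vehicle-treated APP/PS1 levels come from a scaling of all 14 libraries. Alternatives were DESeq2 1.42.0, limma-voom with quality weights, RLE and upper-quartile factors, no filter, a minimum of 10 counts, all 3 groups in one fit, robust dispersion, the ribosomal RNA share or a thalamus score as covariate, and leaving out each mouse. The scripts were tested on simulated data. Named genes were the 8 of smallest p in each direction and the 5 of largest fold change with a mean of at least 1 CPM among called genes without overlap, 20 fixed genes, and the 4 members of smallest p in each of 48 lists. Members and lists were chosen with earlier results of these data known, and the labels give no batch. Lists are described by counts and medians, with no test of the list. Some named genes are not reported here. Promoter windows were taken from RefSeq (GRCm38.p6).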

Additional observations from a re-analysis of the deposited data

Results flagged for a closer look

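Within groups of 4 or 5 mice, a value was picked out here by its gap to the nearest other mouse. That gap had to be a larger part of the group's range than Dixon's 95% limit allows, which chance gives in about 1 of 20 groups. The search covered the named genes (209 with a test) and the lists, in both groups. Many such values can therefore arise by chance. Among NTG mice, mouse 7 was set apart for Notch3 (20.5 CPM, the others 18.8 to 19.1), Cbs (28.6 CPM), Prnp (756 CPM), Clec7a (3.20 CPM, the others 1.04 to 1.38), Gfap (504 CPM, the others 324 to 346) and Lrp1 (644 CPM). Mouse 7 was also set apart in the mean log2 difference from the NTG mean for Fc gamma receptors and their signal chain (0.13), reactive astrocytes (0.18) and mature oligodendrocytes and myelin (0.32). NTG mouse 8 was low for Scd4 (1.18 CPM, the others 3.61 to 4.07). NTG mouse 9 was low for Hcar2 (0.125 CPM) and for lysosome and V-ATPase genes (-0.071). NTG mouse 10 was high for Apln (32.2 CPM) and Nrp2 (63.7 CPM).

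Among CP2-treated mice, mouse 23 was set apart for Gramd3 (11.6 CPM, the others 5.39 to 6.99), Cd74 (25.4 CPM, the others 16.3 to 18.4), Tagln (7.22 CPM) and F13a1 (3.98 CPM). Mouse 25 was set apart for H2-Q6 (6.61 CPM), for autophagy genes (-0.046) and for activity-dependent immediate early genes (0.68, the others -0.69 to -0.33). Mouse 21 was set apart for Nrp2 (64.4 CPM). Of these genes, Prnp, Lrp1, Nrp2 and F13a1 did not pass the test between the groups.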

How the results depend on the processing

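No paired analysis was possible because the labels do not give the litter or cage of each mouse. The mouse numbers (7 to 10 and 21 to 25) do not link mice between the groups. Of 117 named genes that passed, 80 kept their call under every alternative that tested them and 37 lost it under at least 1. Ccl3, counted among the 80, was tested under 18 of the 19 alternatives. No gene that passed among all 989 changed sign under any alternative. DESeq2 called 1670 genes, with 595 lower. Leaving out 1 mouse at a time gave 572 to 1123 genes in all, 464 to 831 higher and 108 to 306 lower, and 1770 to 2541 genes without overlap. The lowest totals came without NTG mouse 9 (572), CP2-treated mouse 21 (616) and NTG mouse 8 (623), the lowest counts of lower genes without NTG mouse 9 (108), treated mouse 24 (110), NTG mouse 8 (117), treated mouse 21 (122) and treated mouse 22 (154), and those of higher genes without NTG mouse 9 (464), NTG mouse 10 (489) and treated mouse 21 (494). Genes without overlap numbered 1600 with every mouse kept, 2541 without NTG mouse 7, 2495 without treated mouse 23 and 1770 without treated mouse 21. The other alternatives gave 703 genes with all 3 groups in one fit to 1274 with limma-voom. Genes near 0 changed sign without passing: G6pdx ranged from -0.031 to 0.082 with 1 mouse left out and fell below 0 without NTG mouse 8 (-0.031), NTG mouse 9 (-0.0018) and treated mouse 21 (-0.00094), and Mt3 ranged from -0.061 to 0.032 and was above 0 without treated mouse 25. The cause of these changes was not tested. Among the higher genes, 70 had an NTG mean under 1 CPM, where 1 count was worth 0.00938 to 0.0148 CPM. Of the 989 genes, 300 share exons with another gene, whose reads cannot be told apart without strand.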
